A study of Macaca mulatta with 20 samples.

Results

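The genes described here are 8 members of the machinery by which cells sense and move cholesterol: ABCA1, ABCG1, NR1H2, NR1H3, MYLIP, SQLE, SREBF1 and SREBF2. They were followed in the blood of rhesus macaques before and after a 10 Gy dose of X-rays to the thorax (whole thorax lung irradiation, WTLI). The members were taken by name from the array annotation, and their probes were chosen by 1 measured value, the scanner's mark for signal well above background, which had to be set on at least 5 of the 20 arrays. The array carries 10 probes for the 8 genes, 1 each for 6 genes and 2 each for ABCA1 and SREBF1. All 10 were kept, among 19961 probes of 15929 genes kept out of 34127 probes. By the number of arrays none lay near the threshold, since every member probe was well above background on 20 of 20 arrays. None was saturated on any array. ABCA1 and SREBF1 were picked with their values after irradiation already known, so those values are given as a description and not as a test.

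Cells rid themselves of surplus cholesterol by exporting it to lipoproteins, and ABCA1 and ABCG1 are the membrane transporters that do so, ABCA1 to lipid-poor apolipoprotein and ABCG1 to formed HDL particles. Their genes are switched on by the liver X receptors LXRα and LXRβ, the products of NR1H3 and NR1H2, which bind oxidised cholesterol. Another LXR target, MYLIP (also called IDOL), marks the LDL receptor for destruction and so lowers uptake. Lipid synthesis is driven by the SREBP transcription factors, the products of SREBF1 and SREBF2. They raise genes of fatty acid and cholesterol synthesis, including SQLE, the squalene epoxidase of the sterol pathway. In blood, ABCA1 and the LXR genes are known for their part in monocytes and macrophages, where lipid export and inflammatory signalling meet.

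RNA of whole blood, from which globin transcripts had been removed, was hybridised to 20 one-colour Agilent arrays designed on the human genome, 5 for each of 4 groups, taken before irradiation (pre-irradiation) and on days 2, 5 and 30 of follow-up. All groups were male macaques of Chinese origin that received no mitigator, and by the labels the later groups differ from pre-irradiation in the dose received and in time. There was no sham-irradiated group, so time and irradiation cannot be told apart. Arrays that carry the same replicate number, 1 to 5, were compared as pairs, since the study paired its comparisons by animal, and 1 sample was pooled from a pair of animals without the labels saying which. Levels are given as the log2 signal minus the 75th percentile of the array, so that 0 is the level of a probe brighter than 75% of the probes. They compare arrays for 1 probe and not different probes, and in whole blood fewer cells of a type and less RNA per cell cannot be told apart. Across the arrays, 50.9% to 67.3% of the spots were well above background, with day 5 replicate 3 highest.

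The probes of ABCA1 and SREBF1 are shown because these are the members read by 2 probes each, and the sizes of the differences were not the same on both. ABCA1 lies on the minus strand of human chromosome 9 (build hg19). Probe 1 reads chr9:107543704-107543763, and probe 2 reads chr9:107624012-107624071, which is 80308 bases further towards the start of the gene. The SREBF1 probes lie close together on the minus strand of chromosome 17, probe 1 at chr17:17715419-17715478 and probe 2 at chr17:17715304-17715363, with 55 bases between them. Each probe has 60 bases on 1 unspliced stretch of the genome. The exon was not assigned here, and mismatches of the human probes to macaque transcripts were not used here. Sequences run 5′ to 3′ in lower case with no part marked. ABCA1 probe 2 is given whole and the others by their first 30 bases.
ABCA1 probe 1: ccaaagagccatgtgtcatgtaatactgaa
ABCA1 probe 2: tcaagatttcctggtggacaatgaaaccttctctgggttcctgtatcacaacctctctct
SREBF1 probe 1: ggctcctgtgctactttgccttttgcaaac
SREBF1 probe 2: atgtgctgactagtgagagtgcttgggccc
The G and C content was 35% for ABCA1 probe 1 and 45% for probe 2, while the SREBF1 probes had 36.7% and 60%.

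ABCA1 had a higher mean on both of its probes at each of the 3 days after WTLI than before it. Its probe 1 was higher on every day in every pair, which held for no other member probe, ABCA1 probe 2 included. Outside the members it held for the RXRA probe as well. The share of all probes higher in every pair on all 3 days was not counted. On probe 1 the pre-irradiation levels of replicates 1 to 5 were 0.55, 0.67, 0.54, 0.38 and 1.51. Replicate 5 thus started well above the other 4. At day 2 the levels were 2.42, 1.01, 2.24, 1.79 and 2.09, at day 5 they were 1.60, 1.45, 1.16, 1.08 and 2.29, and at day 30 they were 2.57, 1.75, 1.40, 1.32 and 2.09. Each of the 5 pairs was higher on each day, as were those of 6.17%, 7.23% and 7.41% of all probes at days 2, 5 and 30, but the groups overlapped on all 3 days because the pre-irradiation array of replicate 5 reached into the later ranges.

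The mean level of ABCA1 probe 1 was 0.73 ± 0.45 (SD, n = 5) before irradiation, 1.91 ± 0.55 at day 2, 1.52 ± 0.48 at day 5 and 1.83 ± 0.52 at day 30. The mean log2 difference from pre-irradiation was 1.18 at day 2 (standard error 0.26), 0.79 at day 5 (standard error 0.14) and 1.10 at day 30 (standard error 0.23), or 2.27-fold, 1.73-fold and 2.14-fold. These 3 differences share the same 5 pre-irradiation arrays. The order of the means was pre-irradiation, day 5, day 30 and day 2, and among the last 3 the neighbours did not differ beyond their spread. Day 30 minus day 5 was 0.31 (95% interval -0.16 to 0.78, limma adjusted p = 0.666), and day 30 minus day 2 was -0.08 (95% interval -0.64 to 0.47, limma adjusted p = 0.902). Leaving out each replicate in turn, the difference from pre-irradiation lay between 1.01 and 1.39 at day 2, 0.72 and 0.83 at day 5, and 0.86 and 1.23 at day 30. With normexp background correction the day 2 difference was 0.69, where the median of all probes was 0.16, and those at days 5 and 30 were 0.70 and 0.85.

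ABCA1 probe 2 gave a smaller difference in the same direction. It had the lowest signal of the member probes, at a median level of -1.865 over the 20 arrays. Its pre-irradiation levels were -1.78, -3.56, -2.14, -3.11 and -1.61, a spread wider than on probe 1. At day 2 the levels were -1.36, -2.81, -1.71, -1.95 and -1.63, at day 5 -1.12, -2.59, -1.40, -3.01 and -1.57, and at day 30 -1.25, -1.95, -2.53, -2.12 and -1.60. Replicate 5 hardly moved on this probe, and 4, 5 and 4 of 5 pairs were higher at days 2, 5 and 30. At day 5, 7.23% of all probes were higher in every pair. The largest pair differences at days 2 and 30 were those of replicates 2 and 4, the lowest arrays before irradiation. At day 5 replicate 4 differed by 0.11. The mean log2 differences were 0.55, 0.50 and 0.55 (standard errors 0.19, 0.19 and 0.29). The day 30 difference was 0.28 without replicate 2, and that at day 5 was 0.27 with normexp. Within each array, probe 1 minus probe 2 was higher at day 2 than before irradiation by 0.63 on average, with a standard error of 0.34 over 5 pairs (exact two-sided permutation p = 0.188, adjusted p = 0.375 over 6 such tests). The smallest p that 5 pairs allow is 0.0625, so the test could not fall under 0.05 and decides nothing.

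**Figure D1:**
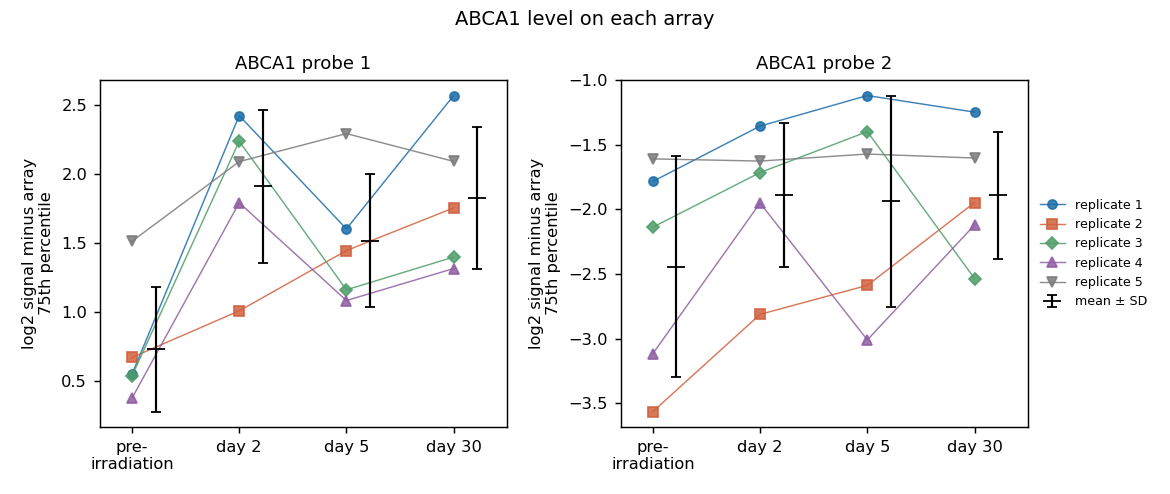
ABCA1 level (log2 signal minus the 75th percentile of the array) on the 5 arrays of each group, for probe 1 (left) and probe 2 (right), with lines joining arrays of the same replicate number and black bars for the mean ± SD. On probe 1 all 5 lines lie above their pre-irradiation point at days 2, 5 and 30, and replicate 5 starts at 1.51 against 0.38 to 0.67 for the others. On probe 2 replicate 5 stays level near -1.6.

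Markers of myeloid blood cells were higher on the same days as ABCA1. Of 10 monocyte and macrophage markers listed, 8 had a kept probe, and all 8 had a higher mean than before irradiation at days 2, 5 and 30. The log2 of their summed level lay between 6.50 and 8.06 before irradiation, 7.53 and 8.38 at day 2, 6.59 and 8.23 at day 5, and 7.52 and 8.46 at day 30. Of the other 2, LYZ is not on the array by that name, and the CTSS probe was well above background on 0 arrays. All 9 neutrophil markers with a kept probe, of 10 listed, were also higher on each day, with a summed level of 7.09 to 8.94 before irradiation, 8.31 to 10.04 at day 2, 8.01 to 9.67 at day 5 and 8.50 to 10.52 at day 30. FCGR3B is not on the array by that name. The median log2 difference was 0.61, 0.39 and 0.63 over the monocyte markers and 0.997, 0.64 and 1.03 over the neutrophil markers at days 2, 5 and 30. Their part in the ABCA1 values was not tested.

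Platelet markers were also higher at days 2 and 5, and the T and NK cell, B cell and erythroid lists took other courses. All 12 T and NK cell markers were lower at day 2, 11 at day 5 and 10 at day 30, and their summed level of 7.18 to 7.61 before irradiation stood at 6.45 to 7.02 at day 2, 6.24 to 7.78 at day 5 and 6.69 to 7.56 at day 30. All 8 B cell markers with a kept probe were lower at days 2 and 5 and 6 at day 30, with summed levels of 6.09 to 6.96, 5.35 to 6.35, 5.80 to 6.22 and 5.49 to 6.63 in the 4 groups in time order. All 8 platelet markers with a kept probe were higher at days 2 and 5 and 3 at day 30, with summed levels of 4.73 to 6.35, 6.37 to 8.31, 5.98 to 7.09 and 5.57 to 6.04. Of the 10 erythroid markers, 4, 7 and 0 were higher at days 2, 5 and 30, with summed levels of 12.41 to 12.72, 12.09 to 12.84, 12.21 to 13.20 and 11.75 to 12.88. At days 2, 5 and 30 the median log2 difference over the platelet markers was 1.46, 0.46 and -0.09. It was -0.64, -0.34 and -0.21 over the T and NK cell markers and -0.56, -0.49 and -0.49 over the B cell markers. Over the erythroid markers it was -0.07, 0.15 and -0.76.

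Over the 10 member probes, the tests across all probes made no call. With the call set at a p-value under 0.005 and an FDR (Benjamini-Hochberg) under 10%, limma called 0 of 10 member probes at day 2, when it called 0.0601% of all probes tested, and 0 at day 5 and 0 at day 30, when it called 0% of all probes. Paired tests without pooling of the spread between probes also called 0 member probes on each day, where they called 0, 1 and 1 of 19961 probes. Without the FDR limit, 1, 1 and 2 member probes had a p-value under 0.005 at days 2, 5 and 30, against 2.55%, 1.58% and 3.14% of all probes. These were ABCA1 probe 1 on each day and SREBF1 probe 2 at day 30. The day 2 count was 0 without replicate 1, 3 or 4, and the day 30 count was 1 without replicate 1, 2, 3 or 4. Each slide held 1 array of each group. With the slide as a block in place of the replicate the counts were 1, 0 and 0, against 320, 72 and 130 of 19961 probes. At an unadjusted p-value under 0.05, with the replicate as a block, 3, 2 and 2 member probes were found, against 15%, 11.2% and 17.5% of all probes. The median log2 difference over the 10 probes was 0.25, 0.05 and 0.09 at the 3 days, where that over all probes was -0.04, 0.03 and -0.02.

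**Figure D2:**
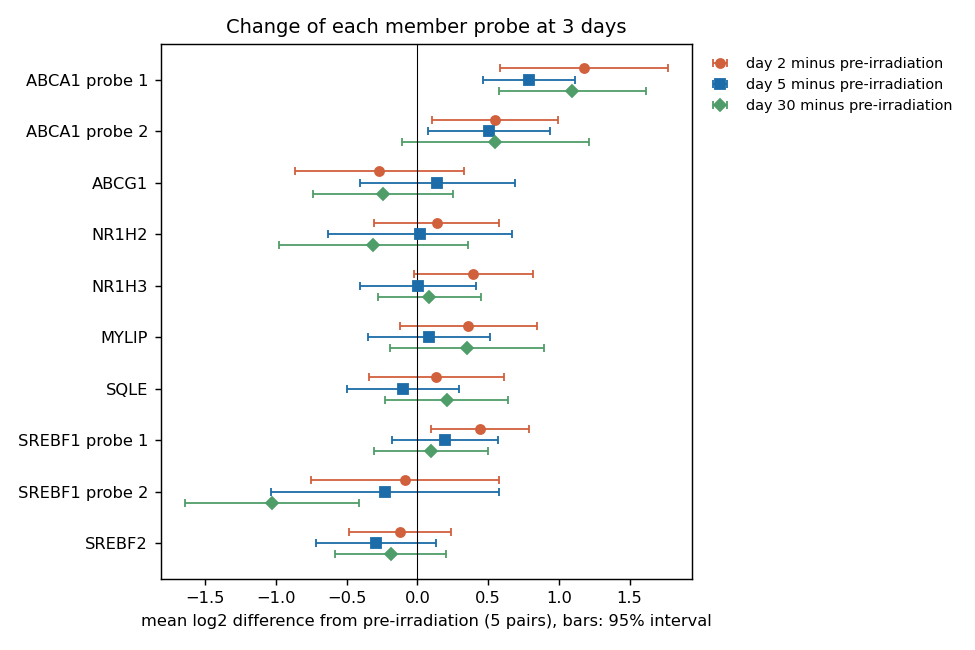
Mean log2 difference from pre-irradiation (horizontal axis) of each member probe at day 2, day 5 and day 30 over 5 pairs, with bars for the 95% interval from limma. The intervals of ABCA1 probe 1 lie above 0 on all 3 days, from 0.46 at the lowest, and that of SREBF1 probe 2 lies below 0 at day 30 (-1.65 to -0.42). Those of ABCA1 probe 2 at days 2 (0.103 to 0.997) and 5 (0.071 to 0.938) also lie above 0. So does that of SREBF1 probe 1 at day 2 (0.0925 to 0.786). The intervals of ABCG1, NR1H2, NR1H3, MYLIP, SQLE and SREBF2 span 0 on all 3 days.

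ABCG1, the other exporter, shared no direction across pairs. Its pre-irradiation levels were 0.01, -0.56, 0.26, 0.04 and -0.76, and at day 2 they were 0.44, -0.72, -1.05, -0.52 and -0.52. The day 5 levels were 0.83, -0.73, 0.49, -0.69 and -0.21, and those at day 30 were 0.29, -0.65, -0.22, -0.94 and -0.72. Pairs went both ways on each day, with 2, 3 and 2 of 5 higher. The mean log2 differences were -0.27 (95% interval -0.87 to 0.33), 0.14 (-0.41 to 0.69) and -0.25 (-0.74 to 0.25) at days 2, 5 and 30, and the limma adjusted p was 0.637, 0.848 and 0.584.

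Neither LXR gene was called. NR1H3, which codes for LXRα, had pre-irradiation levels of -0.17, -0.79, -0.03, -0.02 and -0.08, with replicate 2 far below the others. At day 2 the levels were -0.04, -0.63, 0.31, 0.28 and 0.98, so that all 5 pairs were higher, as in 6.17% of all probes. The mean log2 difference was 0.40 (standard error 0.18, limma adjusted p = 0.354), and 0.23 without replicate 5. At day 5 the levels were -0.26, -0.52, -0.60, 0.05 and 0.28, and at day 30 -0.11, -0.51, -0.17, 0.06 and 0.06. The differences at these days were 0.01 and 0.08, with 95% intervals of -0.40 to 0.42 and -0.28 to 0.45.

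NR1H2, which codes for LXRβ, moved in no single direction from pre-irradiation. Its levels were -1.65, -1.57, -0.71, -1.14 and -1.02 before irradiation and -0.83, -1.32, -0.68, -1.30 and -1.29 at day 2. At day 5 they were -0.34, -1.54, -0.93, -1.49 and -1.69, and at day 30 -0.90, -1.45, -2.09, -1.49 and -1.73. The mean log2 differences from pre-irradiation were 0.13, 0.02 and -0.31 (standard errors 0.19, 0.28 and 0.29), with limma adjusted p-values of 0.762, 0.987 and 0.608. From day 2 to day 30 all 5 pairs were lower, by a mean of -0.45 (95% interval -0.97 to 0.07, limma adjusted p = 0.431), while 6.69% of all probes were lower in every pair of that comparison.

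MYLIP, the ubiquitin ligase that removes the LDL receptor, had levels of 3.19, 3.01, 2.75, 3.36 and 3.27 before irradiation. At day 2 they were 3.71, 2.60, 3.73, 3.56 and 3.76, and replicate 2 stood apart as the only array lower than its pre-irradiation pair. At day 5 they were 3.74, 2.83, 2.89, 2.90 and 3.64, and at day 30 4.13, 3.32, 2.90, 2.83 and 4.14, where replicates 1 and 5 were above every other array of the gene. The mean log2 differences were 0.36, 0.08 and 0.35 (standard errors 0.21, 0.18 and 0.24), and limma gave adjusted p-values of 0.450, 0.891 and 0.477. The difference at day 2 depended on the background correction, and was -0.12 with the normexp method, under which the median of all probes was 0.16. Left out 1 at a time, the replicates moved it between 0.20 (without replicate 3) and 0.55 (without replicate 2), and that at day 30 between 0.20 (without replicate 1) and 0.57 (without replicate 4).

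**Figure D3:**
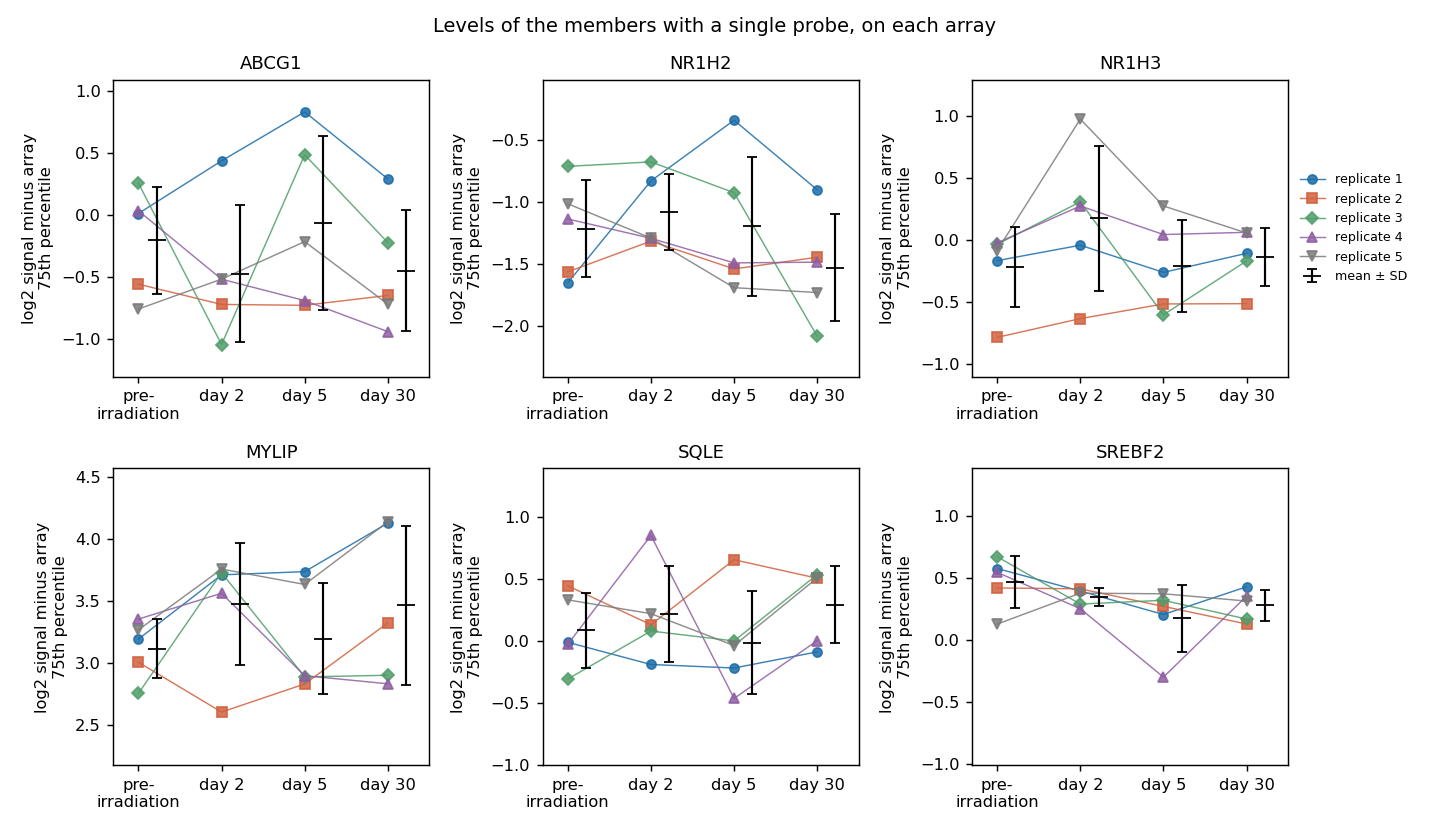
Levels (log2 signal minus the 75th percentile of the array) of the 6 members with 1 probe each, on the 5 arrays of each group, drawn as in the plot of ABCA1, with vertical axes of equal length. In each panel the pre-irradiation arrays overlap with those of every later day. NR1H3 replicate 5 at day 2 (0.98) and MYLIP replicates 1 and 5 at day 30 (4.13 and 4.14) are the highest of their panels.

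SREBF1, whose products SREBP-1a and SREBP-1c drive lipid synthesis genes, gave different answers on its 2 probes. On probe 1 the levels were 2.86, 2.64, 2.70, 2.45 and 2.40 before irradiation and 3.45, 2.71, 3.25, 2.87 and 2.96 at day 2. All 5 pairs were higher at day 2, as in 6.17% of all probes, by 0.44 on average (standard error 0.15, limma adjusted p = 0.254). With normexp background correction that difference was -0.02. The levels were 2.88, 2.66, 3.03, 2.40 and 3.04 at day 5 and 3.36, 2.59, 2.54, 2.38 and 2.67 at day 30, and the differences were 0.20 and 0.10 (standard errors 0.16 and 0.18). From day 2 to day 30 all 5 pairs were lower, as in 6.69% of all probes, by a mean of -0.34 (95% interval -0.69 to 0.01, limma adjusted p = 0.398).

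On SREBF1 probe 2 the day 30 arrays were the low ones. The levels before irradiation were 0.83, 1.89, 1.97, 2.23 and 0.55, with replicates 1 and 5 below the rest. At day 2 they were 0.91, 3.10, 1.15, 1.68 and 0.16, and at day 5 1.30, 1.77, 1.54, 0.42 and 1.29. At day 30 they were 0.14, 0.25, 1.18, 0.34 and 0.39, where replicate 3 alone stayed above 1. The groups overlapped, but all 5 pairs were lower at day 30 than before irradiation, as in 10.5% of all probes, and all 5 were lower than at day 5, as in 5.88%. The mean log2 difference from pre-irradiation was -0.09 at day 2, -0.23 at day 5 and -1.03 at day 30 (standard errors 0.29, 0.35 and 0.27), the last a ratio of 0.489. Day 30 minus day 5 was -0.80 (95% interval -1.36 to -0.25), with an unadjusted p from limma of 0.0103 and an adjusted p of 0.561. Day 30 minus day 2 was -0.94 (95% interval -1.96 to 0.08, limma adjusted p = 0.411), and it ran between -1.23 and -0.46 when 1 replicate at a time was left out.

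The gap between the SREBF1 probes, probe 1 minus probe 2 on the same array, does not depend on a constant by which an array is shifted. Other processing can change it. With normexp the day 30 differences from pre-irradiation were -0.04 on probe 1 and -0.94 on probe 2, in place of 0.10 and -1.03. The gap was 1.12 ± 0.78 (SD, n = 5) before irradiation, 1.65 ± 1.29 at day 2, 1.54 ± 0.41 at day 5 and 2.24 ± 0.67 at day 30. From pre-irradiation to day 30 it widened in 5 of 5 pairs, by 1.13 on average and between 0.42 and 1.81 (exact two-sided permutation p = 0.0625, the smallest that 5 pairs allow, adjusted p = 0.375 over the 6 tests of probe gaps). With 5 pairs the test could not fall under 0.05, and the gene was picked with its values known, so the widening is a description. A gap that widens shows unequal change of the signals and not which of the probes follows the transcript.

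**Figure D4:**
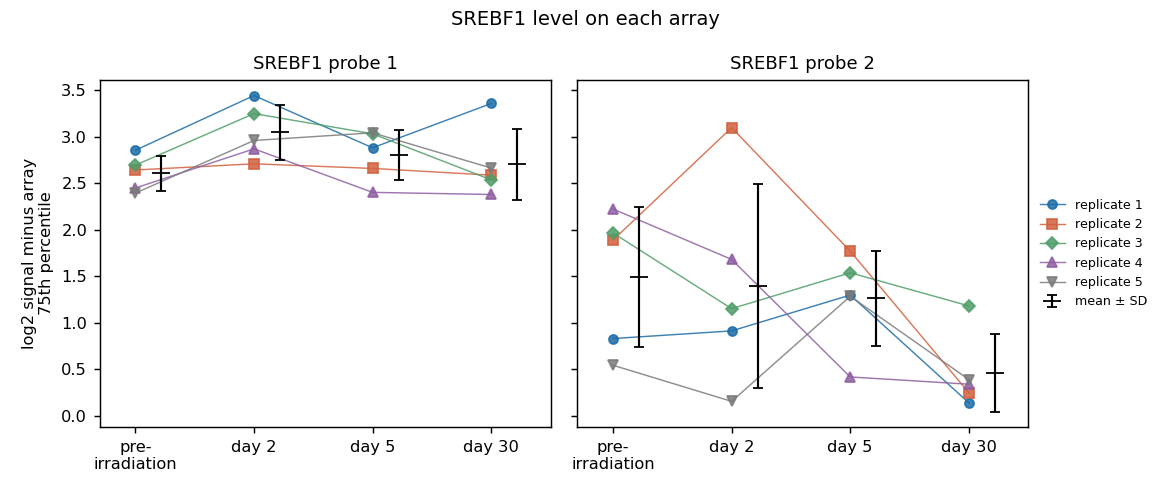
SREBF1 level (log2 signal minus the 75th percentile of the array) on the 5 arrays of each group, for probe 1 (left) and probe 2 (right) on the same vertical axis, with lines joining arrays of the same replicate number and black bars for the mean ± SD. Probe 1 stays between 2.38 and 3.45 throughout, whereas probe 2 ranges from 0.14 to 3.10 and 4 of its 5 day 30 arrays lie at or under 0.39.

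SREBF2, the main regulator of cholesterol synthesis genes, varied little between arrays. Its levels were 0.58, 0.42, 0.67, 0.54 and 0.13 before irradiation and 0.39, 0.41, 0.29, 0.25 and 0.38 at day 2. At day 5 they were 0.20, 0.27, 0.32, -0.30 and 0.37, with replicate 4 apart, and at day 30 0.43, 0.13, 0.17, 0.35 and 0.31. In each comparison 4 of 5 pairs were lower and replicate 5 was higher. The mean log2 differences were -0.12, -0.29 and -0.19 (standard errors 0.16, 0.18 and 0.17), and limma gave adjusted p-values of 0.727, 0.572 and 0.597.

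SQLE, an oxygen-dependent enzyme of the sterol pathway and a target of SREBP-2, had levels of -0.01, 0.45, -0.31, -0.03 and 0.33 before irradiation. They were -0.19, 0.13, 0.08, 0.85 and 0.22 at day 2, -0.22, 0.66, 0.00, -0.46 and -0.04 at day 5, and -0.09, 0.51, 0.54, 0.00 and 0.51 at day 30. Arrays of all groups overlapped. The mean log2 differences were 0.13, -0.10 and 0.21 with 95% intervals of -0.35 to 0.61, -0.50 to 0.30 and -0.23 to 0.64, and the limma adjusted p was 0.785, 0.852 and 0.605.

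Between the days after irradiation, limma called 0 of 10 member probes in each of the 3 comparisons, where it called 0% of all probes between days 2 and 5, 0.0501% between days 2 and 30 and 0% between days 5 and 30. Unadjusted p-values under 0.05 were found for 0, 0 and 1 member probes, against 3.56%, 12.8% and 8.48% of all probes, the last being SREBF1 probe 2. Paired tests without pooling called 0 member probes in each, and 0 of all 19961 probes.

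Among the other LXR target genes, LPL, the lipoprotein lipase that frees fatty acids from circulating lipoproteins, rose at day 2. Its levels were -0.15, 0.43, 0.21, 0.08 and 0.52 before irradiation and 0.88, 1.55, 1.47, 1.81 and 1.93 at day 2, so that the groups did not overlap. In that comparison 0.536% of all probes were higher without overlap. The log2 difference was 1.31 (standard error 0.16, 5 of 5 pairs, limma adjusted p = 0.0965). The call held in 6 of 16 alternatives. It was lost without replicate 1, 3, 4 or 5 (adjusted p = 0.228 to 0.428) and without the replicate block (adjusted p = 0.188 from limma). It was also lost with quantile normalization, normexp, no filter on dim probes, the slide as a block and each probe on its own. The difference stayed between 0.95 and 1.38, and the adjusted p ran from 0.0283 to 0.428. At day 5 the LPL levels were 0.18, 2.07, 0.63, 0.75 and 1.24, and at day 30 0.24, 1.57, 1.63, -0.23 and 0.59. The differences at these days were 0.75 and 0.54 (standard errors 0.21 and 0.27, limma adjusted p = 0.331 and 0.341), the last being 0.32 without replicate 3. Of the 12 genes in this list, 7 had a kept probe, 1 each, and LPL was the only 1 called on any day. The list's median log2 difference was 0.18, -0.15 and -0.27 at days 2, 5 and 30, and 4, 2 and 2 of 7 probes were higher.

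The other lists of cholesterol genes held no called probe on any day. Among the LXR partners and coregulators, 11 probes of 7 genes were tested, with medians of -0.09, -0.14 and -0.20 and 5, 4 and 5 probes higher at days 2, 5 and 30. Their RXRA probe, for the partner with which an LXR binds DNA, was higher in 5 of 5 pairs on each day. Every pair was higher for 6.17%, 7.23% and 7.41% of all probes on these days. The RXRA differences were 0.63, 0.35 and 0.81 (standard errors 0.22, 0.14 and 0.24, limma adjusted p = 0.256, 0.417 and 0.177). The day 2 difference was 0.18 with normexp background correction, where the median of all probes was 0.16. That at day 5 was 0.23 with median scaling, where the median of all probes was -0.09. RXRA stood at 4.44, 4.38, 4.54, 3.52 and 4.89 before irradiation and at 5.91, 4.97, 4.76, 4.95 and 5.21 at day 30, where replicate 3 at 4.76 lay below the highest array before irradiation. The corepressor gene NCOR1 had 3 probes, with log2 differences at day 5 of -0.45 (standard error 0.16), -0.40 and -0.08 (limma adjusted p = 0.374, 0.465 and 0.875).

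Of the genes for SREBP processing and LDL receptor control, 8 were measured by 10 probes, with medians of -0.20, -0.15 and -0.07 at days 2, 5 and 30 and 3, 2 and 3 probes higher.

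The 20 cholesterol synthesis enzymes on the array had 22 kept probes, with medians of -0.13, -0.11 and -0.05, and 6, 7 and 10 of them were higher at days 2, 5 and 30.

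Among genes of cholesterol uptake, lysosomal export, esterification and oxidation, 12 were measured by 14 probes, with medians of 0.18, 0.08 and 0.31, and 8, 8 and 9 probes were higher at days 2, 5 and 30. SOAT1, which esterifies cholesterol for storage, had levels of -3.25, -2.76, -3.32, -2.70 and -1.98 before irradiation and was well above background on 3 of those 5 arrays. At day 2 all 5 arrays were, at -2.15, -2.57, -1.95, -1.83 and -1.56. The log2 difference was 0.79 (standard error 0.20, 5 of 5 pairs as in 6.17% of all probes, limma adjusted p = 0.195). At day 30 it was 1.05 (standard error 0.37, 4 of 5 pairs, limma adjusted p = 0.213). Without replicate 1 the day 30 difference was 0.62, and with normexp it was 0.53.

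**Figure D5:**
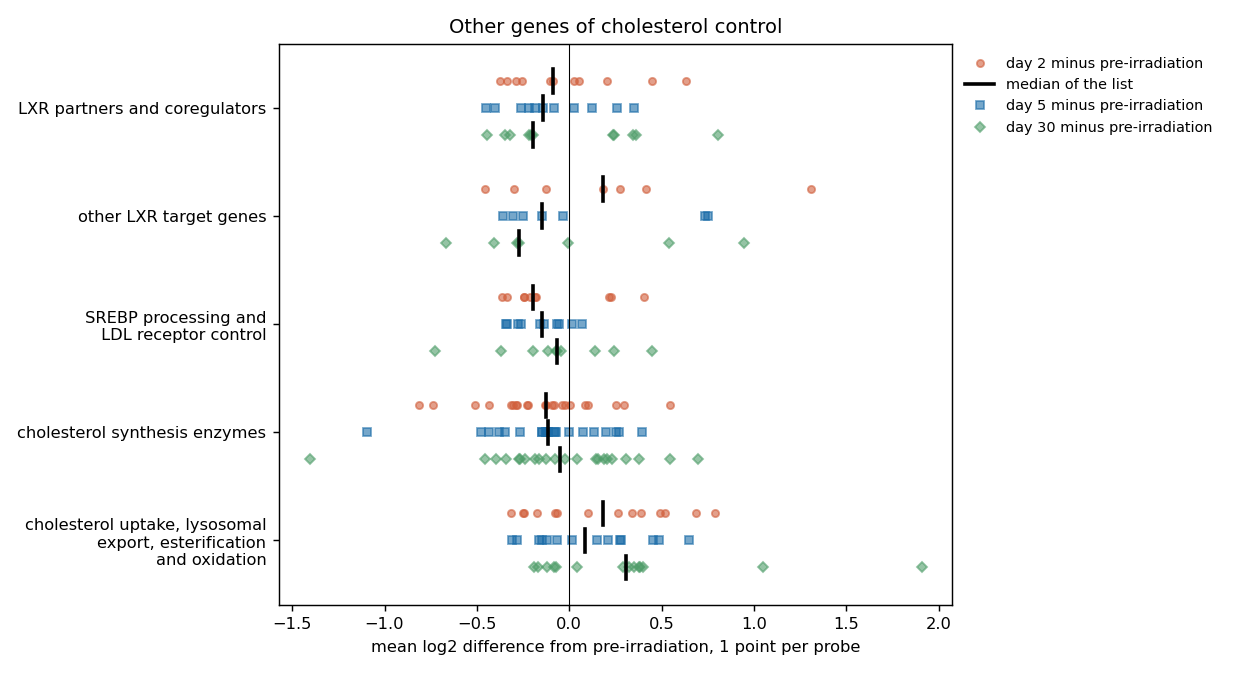
Mean log2 difference from pre-irradiation (horizontal axis) of the probes in 5 lists of cholesterol genes at day 2, day 5 and day 30, with 1 point per probe over its pairs and a black bar for the median of the list. The medians lie between -0.27 and 0.31, and the rightmost point of the other LXR target genes at day 2 is LPL (1.31). The farthest points at day 30 are OLR1 on the right (1.91) and TM7SF2 on the left (-1.40), named for their place in the plot after their values were seen, neither of them called.

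The probes whose level ran most like ABCA1 probe 1 over the 20 arrays were found by the mean absolute difference of their levels, each centred on its own mean. The 5 nearest genes were WDFY3 (0.16), KCNE3 (0.17), FRY (0.17), CARD6 (0.18) and SEC14L1 (0.19), out of 19939 probes with a value on every array and a median distance of 0.65. ABCA1 probe 1 itself lay 0.54 from its own mean on average. As a description of the same arrays, WDFY3 was higher than before irradiation by 1.02, 0.71 and 1.18 at days 2, 5 and 30, and SEC14L1 by 0.92, 0.26 and 0.67. ABCA1 probe 2 was left out of this ranking, so its own likeness to probe 1 is not given. Of the other members, MYLIP came nearest at 0.35, at place 507 of these probes, followed by SREBF1 probe 1 at 0.43 and NR1H3 at 0.47. The farthest were ABCG1 at 0.72 and SREBF1 probe 2 at 1.04.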

How the data were processed

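For every array the authors deposited the scanner output of Agilent Feature Extraction (12.0.2.2 per the file headers, 10.7 per the labels) and a table of log2 values. The intensity used is the deposited processed signal, which the authors' scanner software background subtracted and did not normalize between arrays. The deposited log2 values cover 5884 probes, 5 of the member probes among them, and, in nearly all cases and to within 0.001, are that signal on the log2 scale shifted by 1 constant for each array. How the constants were set is not given in the sources used here. Of 34127 probes, 19961 well above background on at least 5 arrays were tested.

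Outlier and control spots were left out, log2 signals of the spots of a probe were averaged, and each array was set to 0 at its 75th percentile. For each comparison, limma 3.58.1 (R 4.3.3) was fitted to the 10 arrays compared, with replicate numbers as blocks, over probes with at least 4 pairs. The study states that comparisons were paired by animal. Arrays of 1 number deviated together from the mean of their group, with a median correlation of 0.28 over 30 pairs of arrays (25 of them over 0.1). Other pairs had a median of -0.07, which is no separate comparison. Centring on group means pushes them below 0 when pairs of 1 number lie above 0. A call needed a p-value under 0.005 and an FDR under 10%.

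The members and lists were chosen with earlier results of these data known. Named besides the members are list genes with a p-value under 0.005 on any day, otherwise the 2 probes of a list with the largest mean absolute difference among those changed in 1 direction in every pair on a day, and the 5 genes with levels most like ABCA1 probe 1. Some genes that this rule names are not reported here. The rhesus RefSeq table given holds all 8 member symbols, and none of its coordinates were used. The number of arrays limits the precision. The alternatives were quantile normalization, median scaling, normexp with an offset of 50, 2 other filters on dim probes, the deposited log2 values, fits without the replicate block, with all arrays together, with slides as blocks, with an intensity trend and with no pooling of the spread between probes, and each replicate left out. Tables and figures used Python 3.11.15, pandas 2.3.3 and matplotlib 3.10.9.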

Additional observations from a re-analysis of the deposited data

Results flagged for a closer look

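In 5 of 40 sets of 5 arrays (10 member probes in 4 groups), 1 array stood far from the other 4 by Dixon's test at the 95% level, where chance flags about 1 set in 20. ABCA1 probe 1 was 1.51 in replicate 5 before irradiation, against 0.38 to 0.67 in the others. NR1H3 was -0.79 in replicate 2 before irradiation, against -0.17 to -0.02. MYLIP was 2.60 in replicate 2 at day 2, against 3.56 to 3.76. SREBF1 probe 2 was 1.18 in replicate 3 at day 30, against 0.14 to 0.39. SREBF2 was -0.30 in replicate 4 at day 5, against 0.20 to 0.37.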

How the results depend on the processing

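Of 700 values of single probes under the alternatives, 648 kept their direction and their side of the threshold, 27 changed direction, 15 passed the threshold in place of missing it and 10, all of LPL at day 2, missed it. The count of member probes called at day 2 was 1, ABCA1 probe 1, in place of 0 with the filter at 20 arrays, the deposited log2 values, all arrays in one fit and the intensity trend, and it ran from 0 to 1 with a replicate left out (1 without replicate 2). In that order, these settings called 190 of 15339, 327 of 5653, 343 of 19961 and 200 of 19961 probes. Without replicate 2, 588 of 19955 probes were called, against 12 of 19961 in the fit used above. At day 30 the count of member probes called was 2, ABCA1 probe 1 and SREBF1 probe 2, with normexp, the filter at 20 arrays and the intensity trend, and 1 with the deposited log2 values and all arrays in one fit. In that order, 952 of 19961, 695 of 15339, 451 of 19961, 334 of 5653 and 121 of 19961 probes were called, against 0 in the fit used above. Without the FDR limit, the day 2 count of 1 member probe became 0 with normexp and with each probe on its own, and ran from 0 to 1 with a replicate left out (0 without replicate 1, 3 or 4). Over all probes, 176 and 227 of 19961 had such a p-value with normexp and with each probe on its own, against 510. Without replicate 1, 3 or 4 these were 224 of 19957, 324 of 19956 and 230 of 19955. The day 5 count of 1 became 0 with median scaling, without the replicate block and with the slide as a block. In that order, 287, 58 and 72 of 19961 probes had such a p-value, against 315. The day 30 count of 2 became 1 with median scaling, with no filter, with the deposited log2 values (which hold 5 of the 10 probes), without the replicate block and with all arrays in one fit, and 0 with the slide as a block and each probe on its own, and ran from 1 to 2 with a replicate left out (1 without replicate 1, 2, 3 or 4). Over all probes, the counts in the first 5 of these settings were 578 of 19961, 603 of 34127, 334 of 5653, 243 of 19961 and 766 of 19961. With the slide as a block and each probe on its own they were 130 and 364 of 19961, against 626 in the fit used above. From day 5 to day 30 the count of 0 member probes became 1 with normexp and the intensity trend, and ran from 0 to 1 (1 without replicate 4). Over all probes it was 226 and 174 of 19961 in these settings and 229 of 19949 without replicate 4, against 136 of 19961. The replicate block changed no other count of member probes, and without it LPL was not called at day 2 (adjusted p = 0.188 from limma). The cause of these changes in the counts was not tested.

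Directions changed as follows. With normexp, which moved the median of all probes to 0.16 at day 2 and 0.10 at day 30, MYLIP at day 2 was -0.12, SREBF1 probe 1 was -0.017 at day 2 and -0.042 at day 30, ABCA1 probe 1 was 0.0096 for day 5 minus day 2 and 0.16 for day 30 minus day 2, and SREBF1 probe 2 was 0.075 for day 5 minus day 2. At day 5, median scaling, which moved the median of all probes to -0.09, gave NR1H2 -0.10, NR1H3 -0.11 and MYLIP -0.038, while NR1H3 was -0.015 after quantile normalization and -0.021 in the deposited values. With a replicate left out in turn, ABCA1 probe 1 ran from -0.29 to 0.10 for day 30 minus day 2, and SREBF1 probe 2 from -0.46 to 0.16 for day 5 minus day 2. At day 2, NR1H2 ran from -0.037 to 0.24, SQLE from -0.054 to 0.24 and SREBF1 probe 2 from -0.42 to 0.090. At day 5, ABCG1 ran from -0.030 to 0.36, NR1H2 from -0.31 to 0.19, NR1H3 from -0.082 to 0.15, MYLIP from -0.033 to 0.22 and SREBF1 probe 2 from -0.47 to 0.17. SREBF1 probe 1 ran from -0.0035 to 0.16 at day 30. The median signal of a spot was 1.68 to 2.46 times its local background, which limits probes of low signal such as ABCA1 probe 2 and SOAT1.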
